A study of Sus scrofa with 6 samples.

Results

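CDH17, RASEF, ABCC11, CBR2, TNFRSF6B, GTF2F2 and RCAN1 are 7 of the 17109 genes measured in pig liver by RNA sequencing. They were chosen by their measured levels, which in the ASGR1+/- livers S04 and S05 were well above those in the wild-type (WT) livers WT1, WT2 and WT3. Their rise in S04 and S05 is therefore what chose them. It is described here with no p-value, and how many of them the fit over all genes called is given only beside the share of all genes. The third ASGR1+/- liver, S03, had no part in the choice and is given apart. The description of these genes as nearly silent in WT holds for 3 of the 7. CDH17, RASEF and ABCC11 were below 1 TPM (a deposited level that allows for transcript length and library size) in every WT library. CBR2 and TNFRSF6B averaged 1.80 ± 0.43 and 1.12 ± 0.67 TPM in WT (SD, n = 3). RCAN1 averaged 3.05 ± 0.73 TPM and GTF2F2 22.2 ± 2.25 TPM (SD, n = 3), which put GTF2F2 at the 79.9th percentile of all genes in WT.

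The animals were Bama minipigs, and each of the 6 libraries came from the liver of 1 pig after an overnight fast, 3 labelled ASGR1+/- (S03, S04 and S05) and 3 labelled WT. ASGR1 is the main chain of the asialoglycoprotein receptor, a lectin of hepatocytes that takes up desialylated glycoproteins from blood. The ASGR1+/- pigs carried 1 allele in which CRISPR/Cas9 had deleted the junction of an intron and the next exon. The line was founded by nuclear transfer from edited fetal fibroblast colonies, so its animals trace to few clones. The pigs were young, and the age of each liver donor is not given in the sources used here. The pigs generated in the study were male apart from a single female of the offspring. S03 was left out of the study's own analysis after a principal-component analysis. Genes of chromosome Y summed to 45.3 CPM (counts scaled to a common library size) in S03 and to 435 to 469 CPM in the other 5 libraries.

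The members work in different parts of the cell. CDH17, the liver-intestine cadherin, is a calcium-dependent adhesion protein best known from the human gut epithelium. RASEF, also called RAB45, joins a Rab GTPase domain to calcium-binding EF hands. ABCC11 is a pump of the ATP-binding cassette family that exports organic anions and is known in humans for setting earwax type. CBR2 is an NADPH-dependent carbonyl reductase, first described from lung, that reduces aldehydes and ketones. TNFRSF6B, decoy receptor 3 in humans, is a secreted receptor that captures the ligands FASLG, TNFSF14 and TNFSF15 and keeps them from their signalling receptors. GTF2F2 encodes the small subunit of TFIIF, which escorts RNA polymerase II to promoters. RCAN1 binds and restrains calcineurin, the phosphatase that sends NFAT factors to the nucleus, and RCAN1 is itself a target of NFAT.

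Library totals ran from 15397758 to 16237721 estimated counts, so that a count of 3 stood for 0.170 to 0.216 CPM. Levels are given as CPM, in which each count is divided by the library total and by the TMM factor, which aligns the bulk of genes between libraries. ASGR1 itself was at 273 to 334 CPM in the ASGR1+/- livers and 285 to 369 CPM in WT. Of the hepatocyte markers ALB was lower, at 9049 CPM in S04, 12415 CPM in S05 and 28435 CPM in S03 against 33493 to 114473 CPM in WT. APOA1, APOB, TTR, TF, AHSG and CYP2E1 were also below every WT library in S04 and S05. FGB was above WT there, at 29686 to 36655 CPM against 11160 to 23609 CPM. SERPINA1, ASGR1, HNF4A and TAT overlapped their WT ranges. With ALB left out and FGB kept, the markers summed to 45442, 51245 and 36853 CPM in S04, S05 and S03, against 37171 to 58084 CPM in WT. FGB, which was raised, was the largest part of that sum in S04 and S05. The sum therefore does not show the other markers to be at the WT level. Red-cell genes summed to 3.31 and 17.9 CPM in S04 and S05 against 83.4 to 246 CPM in WT. S03 held the most red-cell RNA, at 796 CPM. In whole liver a gene that rises in 1 cell type and a larger share of that cell type cannot be told apart. With 1 library per animal, p-values measure the spread between these animals.

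CDH17 lies on chromosome 4 from 42508852 to 42597888 in the pig assembly Sscrofa11.1. It had no count in WT1, 1 in WT2 and 7 in WT3, against 288 in S04 and 674 in S05. Those are 0, 0.069 and 0.503 CPM in WT and 17.7 and 41.8 CPM in S04 and S05, with S03 between them at 1.64 CPM. Both S04 and S05 stood far above WT, the lower of them 35.1 times the highest WT liver, and S05 was 2.36 times S04. Among genes of like level, that gap between S04 and S05 stood at the 97.8th percentile. The fitted log2 fold change was 7.31 (SE 0.78), the highest of 13401 genes. Since the 3 WT livers together gave 8 counts, its size is loose. The ratio of summed counts was 168 with an exact interval at 95% confidence of 84.7 to 389, which covers counting error only. A prior count of 2 brought the log2 value to 6.59. It was 9.54 without WT3, 6.69 without WT1 and 6.57 without S05.

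RASEF, on chromosome 10 from 31929121 to 32012183, was the scarcest of the genes in S04 and S05. Its counts were 3, 2 and 4 in WT1 to WT3, 6 in S03, 37 in S04 and 67 in S05. In CPM it was at 0.179, 0.138 and 0.287 in WT, 0.340 in S03, 2.27 in S04 and 4.15 in S05. S03 thus lay at the WT level, within its counting error, while S04 and S05 lay apart from all others. Fitted on the log2 scale, RASEF differed by 3.95 (SE 0.53) between S04 and S05 and WT, and a prior count of 2 gave 3.34. The ratio of summed counts was 16.1 (exact interval 8.16 to 36.2).

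ABCC11 lies on chromosome 6 from 36462190 to 36546989. It was at 0.595, 0.276 and 0.934 CPM in WT1 to WT3, 0.963 CPM in S03, 4.91 CPM in S04 and 7.81 CPM in S05. S03 again matched the highest WT liver, and S04 was 5.25 times that liver. The log2 fold change was 3.39 (SE 0.50). Its annotated span shares 3996 bases with LONP2, the peroxisomal Lon protease, which was much more abundant and also higher in S04 and S05. LONP2 had 268, 304 and 314 CPM in WT1 to WT3, 245 CPM in S03, 525 CPM in S04 and 728 CPM in S05. ABCC11 amounted to 0.222%, 0.0907% and 0.298% of LONP2 in WT, 0.393% in S03, 0.934% in S04 and 1.07% in S05, so it was higher in S04 and S05 relative to the gene it overlaps as well. Whether reads of one were counted for the other was not tested.

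CBR2, on chromosome 12 from 973780 to 976017, was at a like level in S04 and S05. WT1 to WT3 had 0.833, 1.45 and 1.15 CPM, S03 1.42 CPM, S04 9.998 CPM and S05 12.8 CPM. S03 fell inside the WT range. Its log2 fold change was 3.32 (SE 0.33) and stayed between 3.14 and 3.52 when any 1 library was left out. The whole span of CBR2 lies inside that of LOC102160997, whose level was not raised, at 2.44 to 4.90 CPM in WT, 2.27 CPM in S04 and 2.73 CPM in S05.

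TNFRSF6B lies on chromosome 17 from 62635024 to 62637520. It was at 1.49, 0.483 and 2.37 CPM in WT1 to WT3, 8.72 CPM in S03, 30.0 CPM in S04 and 27.1 CPM in S05. All 3 ASGR1+/- livers stood above all 3 WT livers, with S03 in between, and S04 and S05 were nearly level. Their log2 fold change over WT was 4.30 (SE 0.48), from 3.89 to 4.81 with any 1 library left out. TNFRSF6B was the only one of the 7 with counts that were not whole numbers, a sign of reads divided between genes. Its span overlaps RTEL1, a helicase of telomeres, by 1605 bases and ARFRP1, a small GTPase of the Golgi, by 937 bases, and both also had fractional counts. RTEL1 differed by a log2 fold change of 0.29 and ARFRP1 by 0.07. TNFRSF6B was at 3.76% to 13.0% of the RTEL1 level in WT, 50.3% in S03, 194% in S04 and 116% in S05. How the shared reads were divided was not tested.

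GTF2F2, on chromosome 11 from 21987410 to 22144921, had a different pattern. WT1 to WT3 had 16.19, 19.5 and 18.3 CPM, S03 16.7 CPM, S04 27.5 CPM and S05 136 CPM. One library, S05, carried nearly all of the rise, at 4.93 times S04, while S04 was 1.41 times the highest WT liver. Among genes of like level, a gap this wide between S04 and S05 stood at the 99.7th percentile. The log2 fold change of 2.18 (SE 0.56) became 0.63 without S05 and 2.92 without S04. Only 16 of 13401 genes, or 0.119%, were at least 3-fold higher in S05 than in each of the other 5 libraries, and GTF2F2 was one of them.

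RCAN1, on chromosome 13 from 198106256 to 198205727, had the smallest fold and the tightest groups. It was at 5.12, 5.18 and 4.31 CPM in WT1 to WT3, 14.0 CPM in S03, 14.2 CPM in S04 and 15.6 CPM in S05. The 3 ASGR1+/- livers were level with each other and about 3 times WT. The ratio of summed counts of S04 and S05 over WT was 3.05 (exact interval 2.59 to 3.59). Its log2 fold change was 1.61 (SE 0.21), from 1.53 to 1.67 with any 1 library left out.

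**Figure D1:**
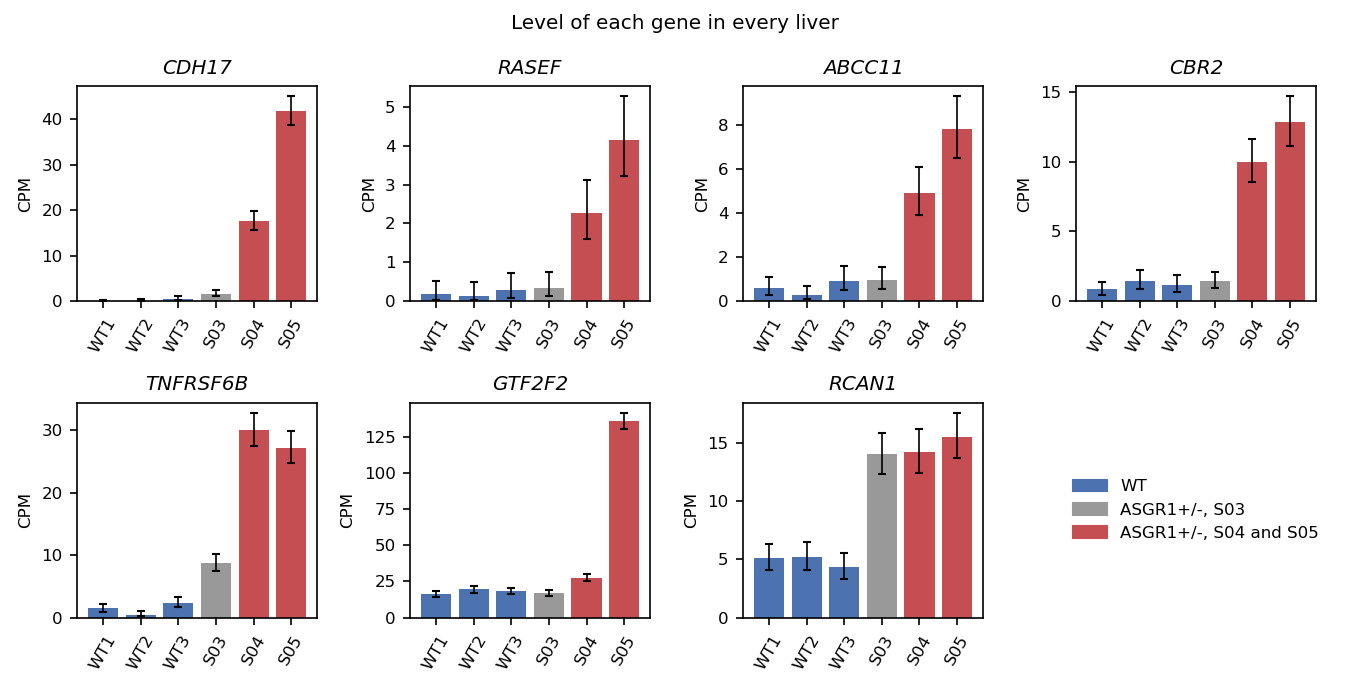
Level of the 7 genes in every liver in CPM (linear axes from 0, a separate scale for each gene), with exact 95% Poisson bars for counting error. S05 alone is tall for GTF2F2 (136 CPM), while for RCAN1 S03, S04 and S05 share a level of 14.0 to 15.6 CPM.

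Per length of transcript, GTF2F2 was the most abundant of the 7 in WT, followed by RCAN1, CBR2, TNFRSF6B, ABCC11, RASEF and CDH17. The WT ranges of RCAN1 and CBR2 overlapped, as did those of CBR2 and TNFRSF6B, and those of ABCC11, RASEF and CDH17. In S04 and S05 the order by mean TPM was GTF2F2, TNFRSF6B, CBR2, CDH17, RCAN1, ABCC11 and RASEF. CDH17 moved from the last place, at 0.07 ± 0.10 TPM (SD, n = 3), to 7.50 and 18.8 TPM, a range that overlapped those of CBR2 and RCAN1. RASEF and ABCC11 stayed scarce, at 0.97 and 1.88 TPM and at 1.51 and 2.60 TPM.

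By the quasi-likelihood test of edgeR with Benjamini-Hochberg adjustment, a gene was called where its adjusted p was 0.05 or less and its fold change, up or down, reached 1 on the log2 scale. In the contrast that chose them 6 of the 7 genes were called, all but GTF2F2, where 0.216% of genes were called higher. S04 and S05 were above every WT liver for 7 of 7, against 19.0% of genes, and nothing is read from either count. Without WT2 only TNFRSF6B was called, where 3 of 13289 genes were called higher. Without WT1 it was CDH17 and CBR2, where 12 of 13230 genes were. Without WT3 it was 5 of the 7, all but GTF2F2 and RCAN1, where 24 of 13281 genes were. The log2 fold changes of the 7 ran from 0.63 (GTF2F2) to 6.57 (CDH17) without S05, and from 1.67 (RCAN1) to 7.80 (CDH17) without S04.

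Of the 4883 genes below 1 TPM in every WT library, 51 reached 1 TPM in both S04 and S05, CDH17 and ABCC11 among them. RASEF, at 0.97 TPM in S04, fell just short. Genes below 1 TPM in every WT library and at least 5-fold above the highest of them, or above the floor of 3 counts, in both S04 and S05 numbered 5. They were CDH17, RASEF, ABCC11, the muscarinic receptor CHRM1 and the inositol hexakisphosphate kinase IP6K3. CHRM1 and IP6K3 are named by that criterion, set after the data were seen.

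S03 gives the one comparison outside the rule, although its WT livers are those the rule used. S03 was above every WT liver for 5 of the 7 genes, against 30.4% of all genes tested. The share was 45.1% among the 1287 genes below 1 TPM in every WT library that were tested between S04 and S05 and WT. For RASEF and ABCC11 the counting interval of S03 overlapped that of WT3, the highest WT liver. For CDH17 (1.10 to 2.36 against 0.202 to 1.04 CPM), TNFRSF6B (7.40 to 10.2 against 1.63 to 3.33 CPM) and RCAN1 (12.4 to 15.9 against 3.29 to 5.55 CPM) it did not.

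Tested against WT with edgeR, S03 being taken to vary as much as the WT livers, 0 of the 6 genes tested were called, where 0.00722% of genes were called higher. RASEF had too few counts to be tested. Of the 6, 3 were higher at an unadjusted p under 0.05, against 5.56% of all genes. By edgeR RCAN1 had a log2 fold change of 1.53 (SE 0.28, adjusted p = 0.233). TNFRSF6B had 2.59 in the same edgeR fit (SE 0.68, adjusted p = 0.290). CDH17 had 3.13 by edgeR (SE 1.22, adjusted p = 0.444), and its value was 5.37 without WT3 and 2.51 without WT1. DESeq2 gave log2 fold changes in S03 of 1.51 for RCAN1, 2.58 for TNFRSF6B and 3.13 for CDH17. For the remaining genes the adjusted p by edgeR in S03 was 0.797 for ABCC11 at 0.68 (SE 0.79), 0.890 for CBR2 at 0.31 (SE 0.58) and 0.904 for GTF2F2 at -0.11 (SE 0.23).

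**Figure D2:**
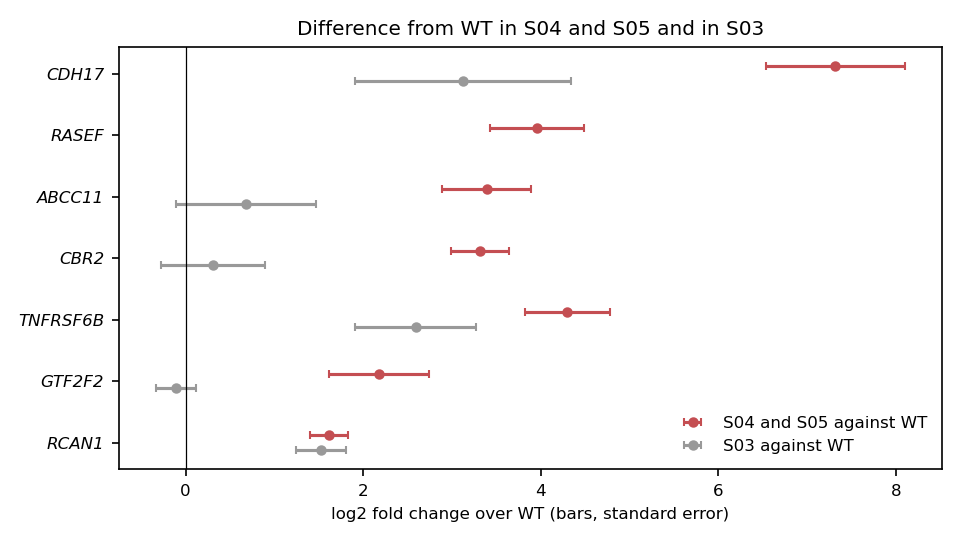
Log2 fold change over the 3 WT livers with its standard error for S04 and S05 together and for S03 alone, 1 row per gene (RASEF was not tested in S03). RCAN1 is the one gene at which both sit together, at 1.61 and 1.53, while the standard errors of ABCC11, CBR2 and GTF2F2 reach across 0 in S03.

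Over the labelled groups, with S03 included, RCAN1 was the only gene that edgeR called higher among those that passed its filter on low counts, where 0.00755% of genes were, and 6 of the 7 were tested. With no filter on low counts 8 genes were called higher, TNFRSF6B and RCAN1 among them. The call of RCAN1 was lost without S04, without S05 and without any 1 of the WT libraries, while DESeq2 called 6 of the 7, where it called 1.05% of genes higher. S03, S04 and S05 are all in that comparison, so it repeats the choice in part.

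The genes sat on 7 different chromosomes, and each was compared with the table genes on either side of it. Of 33 neighbouring or overlapping genes 29 were tested between S04 and S05 and WT, and 0 were called by edgeR, where 0.791% of all genes were called in either direction. An unadjusted p under 0.05 was reached by 6 of them, against 20.9% of all genes. DESeq2 called 1, LONP2, where it called 899 of 16950 genes in either direction. Their log2 fold changes ran from -1.03, for RAD54B beside CDH17, to 1.09, for LONP2. Around GTF2F2, the gene for the abundant growth protein TPT1 was at 1853 to 2305 CPM in WT, 2386 CPM in S04 and 2730 CPM in S05. GPALPP1, on its other side, was at 19.1 to 21.6 CPM in WT, 20.8 CPM in S04 and 21.9 CPM in S05, so the high level of S05 was not shared by these adjoining genes.

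**Figure D3:**
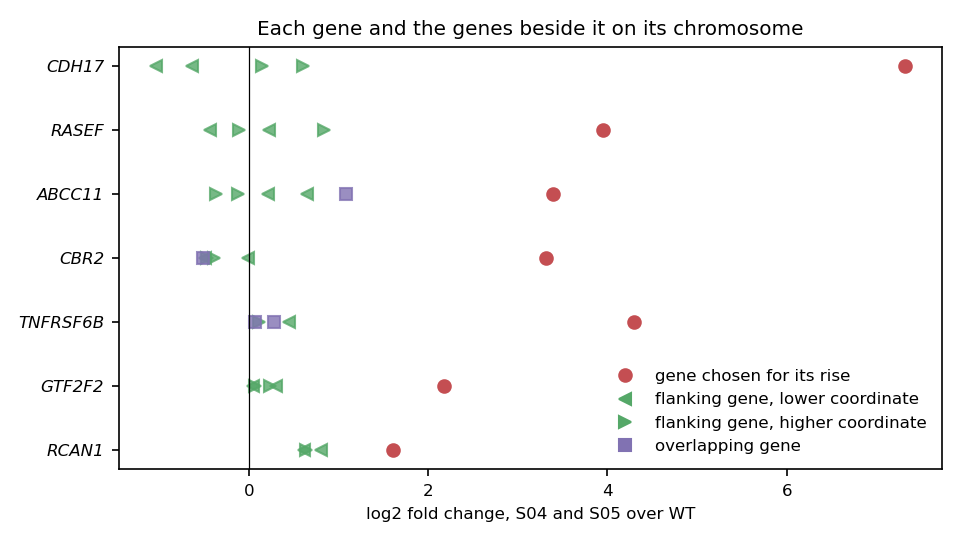
Log2 fold change, S04 and S05 against WT, for each of the 7 genes (circles), the flanking genes on its chromosome (triangles) and genes that overlap it (squares). Neighbours stay between -1.03 and 1.09 while the genes chosen for their rise reach 1.61 to 7.31.

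Similarity of pattern was measured as Pearson's r of log2 CPM over the 6 libraries, among genes with an SD of at least 1. It is a description, and the points share the split of S04 and S05 from WT that chose the genes. RASEF was nearest to ABCC11 (r = 0.99), to LCN2, an iron-sequestering protein of the acute phase (r = 0.98), and to CBR2 (r = 0.97). ABCC11 was nearest to RPP38, a subunit of RNase P (r = 0.98), to the acute-phase apolipoprotein SAA2 (r = 0.98) and to ASNS, the asparagine synthetase (r = 0.98). For CBR2 they were the acute-phase proteins CRP (r = 0.97), LCN2 (r = 0.96) and ITIH4 (r = 0.94).

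LCN2 was at 2.08, 0.898 and 1.01 CPM in WT1 to WT3, 3.40 CPM in S03, 106 CPM in S04 and 161 CPM in S05, the same order of libraries as RASEF above WT. SAA2 was at 150 to 381 CPM in WT, 385 CPM in S03, 1821 CPM in S04 and 2908 CPM in S05. In both, as in RASEF, ABCC11 and CBR2, S03 lay near WT.

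TNFRSF6B was nearest to GDF15, a stress-induced cytokine (r = 0.99), to the fatty-acid transporter CD36 (r = 0.98) and to PTGIS, the prostacyclin synthase (r = 0.97). CD36 was at 3.04 to 6.83 CPM in WT, 9.97 CPM in S03, 15.7 CPM in S04 and 21.4 CPM in S05. GDF15 and CD36 had S03 between the groups, while PTGIS was at 7.25 CPM in S03, inside the range of S04 and S05 (8.89 and 7.13 CPM). For CDH17 the nearest were SPRED3 (r = 0.97), the neutrophil protein S100A8 (r = 0.97) and LOC100522787 (r = 0.96), and 1 of these 3 was kept with a prior count of 0.5, as were 2 of 3 for RASEF and 3 of 3 for each of the other genes. The nearest to RCAN1 were LOC110261673 (r = 0.99), LOC110261482 (r = 0.97) and LOC100738744 (r = 0.96), which were also high in S03.

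GTF2F2 shared its single high library with GPSM1, a regulator of G-protein signalling (r = 0.94), LOC100625479 (r = 0.91) and the transglutaminase TGM3 (r = 0.91). GPSM1 was at 24.5 CPM in S05 and at 1.93 to 4.31 CPM in the other 5 libraries. Among the 7 genes themselves r ran from 0.57, between GTF2F2 and RCAN1, to 0.99, between RASEF and ABCC11.

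Families and pathways of the 7 genes were read from 7 lists, 152 genes in all without the 7 themselves, 136 of them tested between S04 and S05 and WT. The median log2 fold change over all 13401 genes was 0.00. By edgeR 0 of the 136 were called, while 13 higher and 14 lower genes had an unadjusted p under 0.05, near the 20.9% of all genes. DESeq2 called 2 higher and 7 lower, where it called 278 higher and 621 lower of 16950 genes.

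Among 13 cadherins and catenins the median was 0.02. CDH1, the E-cadherin of epithelia, was at 252 to 338 CPM in WT and 197 and 278 CPM in S04 and S05 (adjusted p = 0.432). CDH16, the kidney cadherin closest to CDH17 in build, was near the floor at 0 to 0.216 CPM in WT and 0.675 and 1.11 CPM in S04 and S05 (adjusted p = 0.115). The 27 Rab GTPases and their EF-hand relatives had a median of 0.13. CRACR2A, a calcium-sensing Rab relative of RASEF, was at 1.44 to 2.44 CPM in WT and 2.27 and 1.61 CPM in S04 and S05.

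The 9 ABCC transporters had a median of 0.03. ABCC6, a transporter of hepatocytes, was lower in both, at 81.2 and 65.9 CPM against 159 to 188 CPM in WT. Its adjusted p of 0.0503 by edgeR missed the threshold, and DESeq2 called it. ABCC2, the bile canalicular pump, was at 302 and 270 CPM against 263 to 373 CPM in WT.

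The 17 carbonyl-reducing enzymes had a median of -0.73, and none was called by edgeR. An unadjusted p under 0.05 was reached by 1 that was higher and 9 that were lower, against 20.9% of all genes. DESeq2 called 5 of the 17 lower, where it called 621 of 16950 genes lower. CBR3, a cytosolic reductase, was at 2.68 to 10.9 CPM in WT and 1.23 and 0.806 CPM in S04 and S05. HSD11B1, which regenerates cortisol from cortisone, was at 495 to 520 CPM in WT and 258 and 286 CPM in S04 and S05 (adjusted p = 0.0702). The family thus lay on the other side of 0 from CBR2.

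Of the ligands that TNFRSF6B captures, TNFSF14 was at 15.0 to 24.9 CPM in WT, 13.4 CPM in S03, 34.2 CPM in S04 and 15.6 CPM in S05. FASLG and TNFSF15 had too few counts to be tested, at most 1.49 and 0.736 CPM. FAS, the death receptor that FASLG engages, was at 5.53 to 14.1 CPM in WT, 38.9 CPM in S04 and 13.8 CPM in S05, so only S04 was above WT (adjusted p = 0.161). TNFRSF12A, a receptor of tissue injury, was at 0.759 to 3.04 CPM in WT, 7.76 CPM in S03, 6.50 CPM in S04 and 19.8 CPM in S05 (adjusted p = 0.0832). The receptor LTBR was at 56.7 to 69.3 CPM in WT, 75.5 CPM in S03, 91.9 CPM in S04 and 99.1 CPM in S05 (adjusted p = 0.117 by edgeR). TNFRSF19 was at 6.79 to 9.77 CPM in WT, 17.1 CPM in S03, 2.88 CPM in S04 and 1.74 CPM in S05 (adjusted p = 0.0634 by edgeR). DESeq2 called FAS and TNFRSF12A higher and TNFRSF19 lower, where it called 278 higher and 621 lower of 16950 genes. The 21 tested genes of the list had a median of 0.18.

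GTF2F1, the large subunit that pairs with GTF2F2 in TFIIF, was at 24.6 to 30.8 CPM in WT, 34.3 CPM in S03, 34.7 CPM in S04 and 34.4 CPM in S05 (adjusted p = 0.310). It had no peak in S05. The 29 genes of RNA polymerase II and its initiation factors had a median of 0.17 and lay between -0.41 and 0.64. For RCAN1, the 20 genes of calcineurin and NFAT had a median of -0.22, and the calcineurin catalytic subunit PPP3CA was at 31.5 to 43.2 CPM in WT and 28.1 and 23.1 CPM in S04 and S05 (adjusted p = 0.267).

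**Figure D4:**
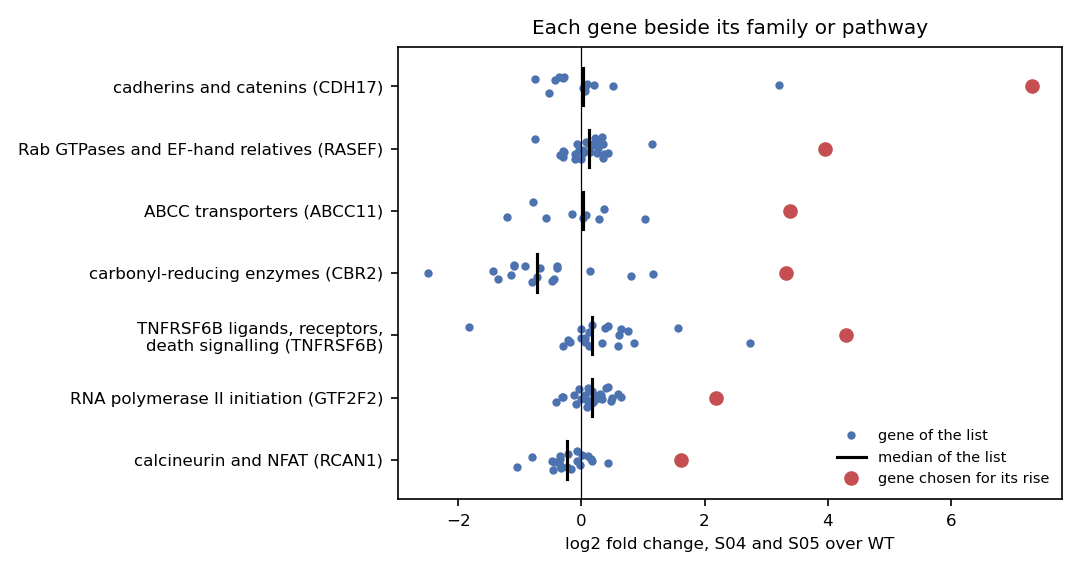
Log2 fold change, S04 and S05 against WT, for the tested genes of each of 7 lists (points, spread vertically for legibility), the median of the list (bar) and the gene of the 7 it belongs to (circle). List medians lie between -0.73 and 0.18.

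Markers of other cells bear on CDH17 first, since it is a gut epithelial gene. Of 10 intestinal markers in the table, GPA33, KRT20, FABP2 and MUC2 were at or under 0.0719 CPM in every library, and the gut regulator CDX2 reached 0.655 CPM at most. VIL1 was at 34.2 to 64.5 CPM in WT and 52.8 and 56.7 CPM in S04 and S05. MUC13 was higher in all 3 ASGR1+/- livers, at 206 CPM in S03, 111 CPM in S04 and 173 CPM in S05 against 3.09 to 47.1 CPM (adjusted p = 0.193 with S04 and S05). The list summed to 86.7 to 135 CPM in WT, 323 CPM in S03, 195 CPM in S04 and 250 CPM in S05. Without MUC13 it summed to 55.6 to 87.9 CPM in WT, 117 CPM in S03, 84.2 CPM in S04 and 76.9 CPM in S05.

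Bile duct markers (11 in the table) summed to 36.0 to 61.0 CPM in WT, 47.7 CPM in S03, 59.1 CPM in S04 and 78.9 CPM in S05. KRT19 was at 15.5 CPM in S04, 4.83 CPM in S05 and 1.17 to 3.74 CPM in WT. EPCAM, at 0.736 to 1.36 CPM in S04 and S05, was within its WT range of 1.10 to 3.66 CPM or below it. Neutrophil markers (7) summed to 14.2 CPM in S03, 17.1 CPM in S04 and 16.7 CPM in S05 against 5.68 to 8.69 CPM in WT. CSF3R was the largest part of that sum, at 11.9 CPM in S04 and 10.1 CPM in S05. CSF3R, S100A8, S100A9 and S100A12 were above every WT library in S04 and S05. MPO, CXCR2 and ELANE were within their WT ranges or below them there, so the markers of the list did not rise together. The part of these cells in the rise of the 7 genes was not tested.

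UPK3B and UPK1B, genes of mesothelium and urothelium chosen here after their values were seen, were at 3.93 and 3.19 CPM in S04, 0.806 and 0.620 CPM in S05 and at most 0.431 and 0.0595 CPM in WT. They were thus higher in S04 than in S05, the reverse of 6 of the 7 genes. BNC1, looked up beside them, was also higher in S04 than in S05, where it was at 0.868 CPM against at most 0.595 CPM in WT. LRRN4, looked up as well, was not raised, at 0.061 CPM in S04 and 0.062 CPM in S05 against at most 0.216 CPM in WT. Over 10 marker lists, edgeR called 0 of 68 tested genes higher and 1 lower. Over all 13401 genes it called 29 higher and 77 lower. DESeq2 called 4 higher and 16 lower of the 83 in the table, where it called 278 higher and 621 lower of 16950 genes.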

How the data were processed

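Libraries were prepared from total RNA of liver with the Optimal Dual-mode mRNA kit and sequenced on a BGISEQ instrument, and whether the counting used strand is not given in the sources used here. The authors trimmed the reads, aligned them to Sscrofa11.1 with HISAT2 (2.0.4) and to the reference genes with Bowtie2, and deposited estimated counts and TPM per gene. Of the deposited estimated counts, 12.0% were not whole numbers, and all were rounded before testing. FPKM and the deposited group means, which include S03, were not used.

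Groups came from the labels. Tests of the counts used edgeR (4.0.16) on R (4.3.3). Libraries were scaled by TMM and genes kept by filterByExpr at a minimum count of 10, and quasi-likelihood p-values were adjusted by Benjamini-Hochberg over all genes tested. S04 and S05 against WT, S03 against WT and all 6 libraries were fitted. DESeq2 (1.42.0), its size factors, no filter, other prior counts and each library left out were alternatives. Similarity used log2 CPM with a prior count of 2. Scripts were tested on simulated data. Gene positions and neighbours were taken from RefSeq on Sscrofa11.1, to which all 17109 genes matched by identifier.

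The text names the 7 genes, the nearest 2 table genes on each side and overlapping genes, the 3 most similar genes, and called genes or nearest partners in 7 family lists. Other names given for orientation were chosen after their values were seen. The 7 genes and all lists were chosen with earlier results of these data known. Depth, at 15397758 to 16237721 counts per library, leaves counting error as a limit for genes of few counts, and intervals cover counting error only.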

Additional observations from a re-analysis of the deposited data

How the results depend on the processing

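No paired analysis was possible because the labels give no number that links an ASGR1+/- pig with a WT pig. Of 90 alternative values for the fold changes of the 7 genes in S04 and S05, 85 moved by less than 1 SD between livers, 5 moved by more, and none changed sign. Of 42 for S03 against WT, which leave out RASEF, none changed sign. DESeq2 gave no adjusted p there for CDH17, RASEF and ABCC11. With S04 and S05 against WT, DESeq2 called 899 genes against 106, and leaving out 1 library gave 0 to 115. With all 6 libraries the count of 18 became 561 with DESeq2, 63 with no filter on low counts and 1 to 4 with S04, S05 or 1 WT library left out, while leaving out S03 gives the fit that called 106. For S03 the count of 11 became 334 with DESeq2 and 6 to 82 with 1 WT library left out, and of the 7 genes 0 were called in each of those and 1 with DESeq2. Of the family genes, 0 by edgeR became 9 with DESeq2 and 1 with no filter, and stayed 0 with any library left out. The causes were not tested. Depth limits RASEF and CDH17 most, at 9 and 8 counts over the 3 WT livers together.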
